A study of Mus musculus with 6 samples.

Results

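The monocyte and macrophage transcripts described here are 10 genes of 19937 measured, chosen by name after their differences in this same contrast had been seen: Lyz2, Cd68, Csf1r, Cd14, Clec7a, Mrc1, Itgam, Ms4a7, C1qa and C1qb. Each gene was read by its 1 probe set with a single gene symbol, in 6 cultures of B6 mouse CD4+ T cells on Affymetrix Mouse Gene ST arrays, 1 array a culture. The 2 anti-CD3 plus anti-ICOS cultures (called anti-ICOS below) and the 4 anti-CD3 cultures share their history: naive splenic cells were activated for 2 days with antibodies to CD3 and CD28 and rested overnight. They were then coated for 20 min with the antibodies of their group, and cross-linked for 8 h with a second antibody that binds the first. Values are log2(intensity + 16) from the authors' normalized intensities, and a difference is anti-ICOS minus anti-CD3.

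Monocytes and macrophages are phagocytes of the myeloid lineage. They depend on the CSF1 receptor for survival, sense microbes through surface receptors such as CD14 and dectin-1, and digest what they engulf with lysosomal enzymes such as lysozyme. The spleen holds several kinds of them, and resident macrophages are a main source of the complement protein C1q. Most of these transcripts serve as markers of myeloid cells rather than of CD4+ T cells, the cells named in the labels.

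The 10 genes did not move as 1 block. Lyz2 and Clec7a had differences of 1.89 ± 0.58 and 1.28 ± 0.21 (SE, 2 anti-ICOS against 4 anti-CD3 arrays). Csf1r, Itgam, Cd68, Cd14 and C1qb lay between 0.25 and 0.47, and Ms4a7, Mrc1 and C1qa between -0.064 and 0.081. The median difference over the 10 was 0.28, against -0.031 over all genes. These genes were selected on the difference itself, so the values are a description and carry no test. In the fit over all genes (limma, Benjamini-Hochberg adjusted p under 0.05), 0 of the 10 passed, where 0.271% of all genes did; without adjustment, p was under 0.05 for 5 of the 10, each higher, where 6.24% of all genes were higher and 5.57% lower. In RNA from whole cultures, more cells of a type and more RNA per cell cannot be told apart.

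Anti-CD3 replicate 4 stood apart from its group, and whether its label is right or it comes from another batch was not tested and is not settled by the files. On log2 values over all genes it correlated at Pearson r = 0.996 with each anti-ICOS array and at 0.982 to 0.987 with anti-CD3 replicates 1 to 3, as a description across genes. Median probe set intensities were 112 and 113 on the anti-ICOS arrays and 109 to 114 on the anti-CD3 arrays. CD4 T cell genes read high on every array, with Cd4 at 11.95 and 12.00 on the anti-ICOS arrays and 12.05 to 12.45 on the anti-CD3 arrays. The B cell gene Cd79a read 12.10 and 12.25 with anti-ICOS and 12.18 to 12.35 with anti-CD3, so the cultures carried B cell transcripts in both groups. Results are therefore given with all arrays, without anti-CD3 replicate 4, and against replicate 4 alone. The labels call the arrays biological replicates and name no batch, and the number of arrays limits the precision.

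**Figure D1:**
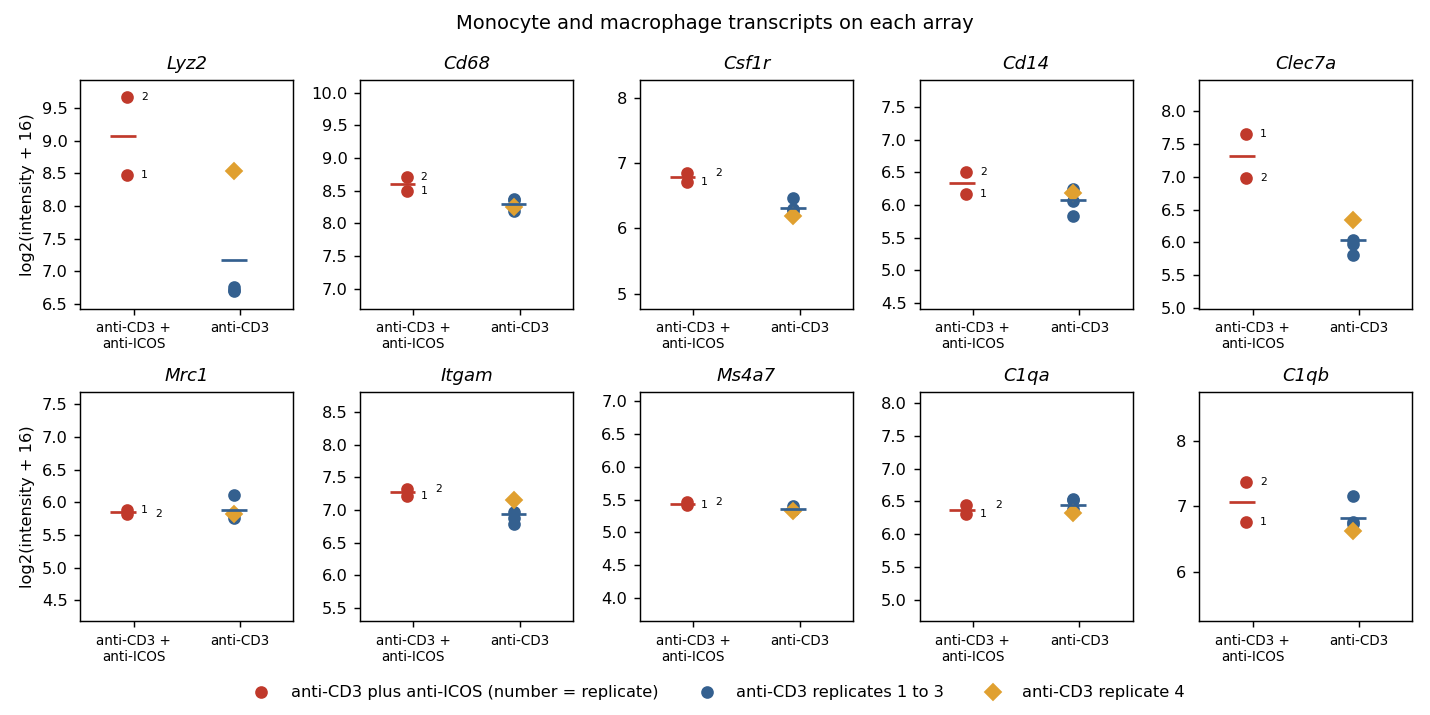
Log2(intensity + 16) of the 10 monocyte and macrophage transcripts, 1 point per array, with the 2 anti-ICOS arrays at the left of each panel and the 4 anti-CD3 arrays at the right; bars are group means and every y axis covers the same length in log2 units. Lyz2 in anti-CD3 replicate 4 (diamond, 8.53) sits beside anti-ICOS replicate 1 (8.47), while Clec7a in replicate 4 (6.34) lies below both anti-ICOS arrays.

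The upstream sequences of 3 genes are shown as examples of 3 patterns: Lyz2 was high in anti-CD3 replicate 4 as well, Clec7a was high with anti-ICOS, and C1qb overlapped between the groups. Each is the 250 bases before the RefSeq transcription start on build GRCm38.p6, minus strand, written 5′ to 3′, at chr10:117282273-117282522 for Lyz2, chr6:129472780-129473029 for Clec7a (the first of its 2 listed starts) and chr4:136886201-136886450 for C1qb. Capitals mark AGGAAGT or GAGGAA on either strand, letters of sites read by PU.1 (the product of Spi1), a factor that myeloid cells depend on.
Lyz2: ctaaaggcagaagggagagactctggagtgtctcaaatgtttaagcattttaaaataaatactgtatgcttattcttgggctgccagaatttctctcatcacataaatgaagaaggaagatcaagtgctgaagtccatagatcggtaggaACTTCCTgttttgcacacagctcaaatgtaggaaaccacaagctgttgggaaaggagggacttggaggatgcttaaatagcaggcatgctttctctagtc
Clec7a: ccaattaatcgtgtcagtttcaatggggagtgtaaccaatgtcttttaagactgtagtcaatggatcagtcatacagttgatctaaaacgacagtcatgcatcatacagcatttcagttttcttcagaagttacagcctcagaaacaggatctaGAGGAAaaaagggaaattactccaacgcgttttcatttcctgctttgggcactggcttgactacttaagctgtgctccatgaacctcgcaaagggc
C1qb: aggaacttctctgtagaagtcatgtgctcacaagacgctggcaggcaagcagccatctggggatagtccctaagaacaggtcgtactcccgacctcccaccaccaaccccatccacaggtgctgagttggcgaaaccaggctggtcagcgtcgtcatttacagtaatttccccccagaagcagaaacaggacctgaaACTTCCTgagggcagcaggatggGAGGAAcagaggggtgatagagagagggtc

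Of the 10 genes 7 were in the promoter table, and in the same 250-base window AGGAAGT was found in 3 of them, Lyz2, Mrc1 and C1qb, against 7.69% of 32851 promoters. The letters GAGGAA, which can overlap AGGAAGT, were found in 5 of the 7, Cd68, Clec7a, Mrc1, Itgam and C1qb, against 23.3% of promoters. A C/EBP pattern, TTGCNNAA, was found in Cd68 alone (9.56% of promoters), and an AP-1 pattern, TGANTCA, in Cd68 and Ms4a7 (6.75%). The AGGAAGT letters were thus present in Lyz2, whose levels separated 3 anti-CD3 arrays from the rest, and in Mrc1, whose levels did not. A gene was counted when any of its listed starts had a match (Clec7a and Ms4a7 have 2 each), whereas the shares are per promoter. A match to letters is a description and not a binding site.

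Lyz2 encodes the lysozyme of macrophages, monocytes and neutrophils, an enzyme that cuts bacterial cell walls. It read 8.47 and 9.67 on the anti-ICOS arrays, against 6.71, 6.70, 6.77 and 8.53 in anti-CD3 replicates 1 to 4. Anti-CD3 replicate 4 was thus level with anti-ICOS replicate 1, and the groups overlapped. Replicates 1 to 3 of anti-CD3 spanned only 0.068. The difference was 1.89 ± 0.58 (SE) with all arrays, 2.34 ± 0.28 without anti-CD3 replicate 4, and 0.53 ± 0.38 against replicate 4 alone. The 2 anti-ICOS arrays were themselves unlike, with linear intensities of 338 and 796, a ratio of 2.35. Lyz1, the neighbouring lysozyme gene of intestinal Paneth cells, varied less, with anti-ICOS replicate 2 highest and anti-CD3 replicate 4 next as for Lyz2, at 7.11 and 7.48 with anti-ICOS and 6.92, 7.12, 6.97 and 7.34 with anti-CD3. Near-identical genes can share probe signal, and how far the Lyz2 and Lyz1 probe sets do so was not tested.

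Cd68 encodes a heavily glycosylated lysosomal membrane protein used as a general macrophage marker. It read 8.49 and 8.70 with anti-ICOS, against 8.35, 8.37, 8.19 and 8.24 with anti-CD3. The 2 anti-ICOS arrays exceeded every anti-CD3 array, and replicate 4 was inside the range of its own group. The difference of 0.31 ± 0.093 was 0.30 ± 0.090 without replicate 4 and 0.35 ± 0.12 against replicate 4 alone.

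Csf1r encodes the receptor for CSF1 and IL-34, on which macrophages depend. Its levels were 6.70 and 6.85 with anti-ICOS, against 6.29, 6.27, 6.47 and 6.19 with anti-CD3. The groups did not overlap, and anti-CD3 replicate 4 was the lowest array of all 6, whereas for Lyz2 it was the highest of the anti-CD3 arrays. Differences were 0.47 ± 0.097 with all arrays, 0.43 ± 0.085 without replicate 4 and 0.58 ± 0.11 against it alone.

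Clec7a encodes dectin-1, the receptor for fungal beta-glucan. It read 7.66 and 6.98 with anti-ICOS, against 6.04, 5.98, 5.81 and 6.34 with anti-CD3. All anti-CD3 arrays lay below both anti-ICOS arrays, and here anti-ICOS replicate 1 was the higher one. The difference was 1.28 ± 0.21 with all arrays, 1.38 ± 0.18 without replicate 4 and 0.98 ± 0.24 against replicate 4 alone. It was 0.87 with an offset of 64 added to the intensities, since the offset shrinks the differences of dim genes. Cd14, the co-receptor that hands lipopolysaccharide to TLR4, read 6.17 and 6.50 with anti-ICOS, against 5.83, 6.24, 6.07 and 6.19 with anti-CD3. Its groups overlapped, with a difference of 0.25 ± 0.14. It was 0.084 without anti-ICOS replicate 2 and 0.42 without anti-ICOS replicate 1.

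Itgam encodes integrin alpha M (CD11b), which pairs with the beta 2 chain to form complement receptor 3. It read 7.21 and 7.33 with anti-ICOS, against 6.78, 6.97, 6.88 and 7.15 with anti-CD3. Both anti-ICOS arrays were above the anti-CD3 arrays, but replicate 4 came within 0.062 of the nearer one. Differences were 0.32 ± 0.11 with all arrays, 0.39 ± 0.079 without replicate 4 and 0.12 ± 0.11 against it alone.

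Mrc1, the mannose receptor CD206 of tissue macrophages, read 5.88 and 5.82 with anti-ICOS, against 5.82, 5.77, 6.10 and 5.83 with anti-CD3. Anti-CD3 replicate 3 was the highest, and the other arrays lay close together. The difference was -0.030 ± 0.11. Ms4a7, a tetraspanning membrane protein gene of macrophages, read 5.41 and 5.46 with anti-ICOS, against 5.35, 5.34, 5.40 and 5.33 with anti-CD3. Its groups did not overlap, but the gap to anti-CD3 replicate 3 was smaller than the range within either group, and the difference was 0.081 ± 0.066.

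C1qa and C1qb encode the A and B chains of C1q, which starts the classical complement pathway. C1qa read 6.30 and 6.45 with anti-ICOS, against 6.54, 6.38, 6.51 and 6.32 with anti-CD3, so that the groups overlapped, with a difference of -0.064 ± 0.093. C1qb read 6.76 and 7.37 with anti-ICOS, against 6.76, 6.73, 7.16 and 6.62 with anti-CD3. Only anti-ICOS replicate 2 lay above the anti-CD3 range, and the difference of 0.25 ± 0.20 was -0.058 without that array and 0.55 without anti-ICOS replicate 1. The third chain, C1qc, which is not among the 10, read 6.21 and 6.57 with anti-ICOS, against 6.30, 6.44, 6.65 and 6.25 with anti-CD3 (difference -0.019 ± 0.15, limma adjusted p = 0.949).

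Across the 10 genes, the 2 anti-ICOS values exceeded every anti-CD3 value in 5 (Cd68, Csf1r, Clec7a, Itgam and Ms4a7), where 8.51% of all genes did so, and were lower than every one in 0, where 14.8% were. With replicate 4 set aside they exceeded replicates 1 to 3 in 6, Lyz2 being added, where 28.5% of all genes did. The choice of genes used this contrast, so nothing is read from these counts. Anti-ICOS replicate 2 was the higher of the 2 anti-ICOS arrays in 8 of 10, all but Clec7a and Mrc1, where 55.5% of all genes were. Replicate 4 of anti-CD3 lay above replicates 1 to 3 in 3 (Lyz2, Clec7a and Itgam; 34.5% of all genes) and below them in 4 (Csf1r, Ms4a7, C1qa and C1qb; 42.5%). The median deviation of the 10 genes from the mean of anti-CD3 replicates 1 to 3 was 0.15 and 0.45 on anti-ICOS replicates 1 and 2, and -0.047 on anti-CD3 replicate 4. Anti-CD3 replicate 4 lay within 0.1 of anti-ICOS replicate 1 for Lyz2, Cd14, Mrc1, Itgam, Ms4a7 and C1qa. For C1qa both of these arrays were below replicates 1 to 3, and for Cd14 and Mrc1 both were inside the range of replicates 1 to 3. Summed linear intensity of the 10 genes was 1370 and 1914 with anti-ICOS, against 881, 901, 915 and 1158 with anti-CD3. In that sum Lyz2 alone gave 338 and 796 with anti-ICOS, and 89, 88, 93 and 355 in anti-CD3 replicates 1 to 4.

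**Figure D2:**
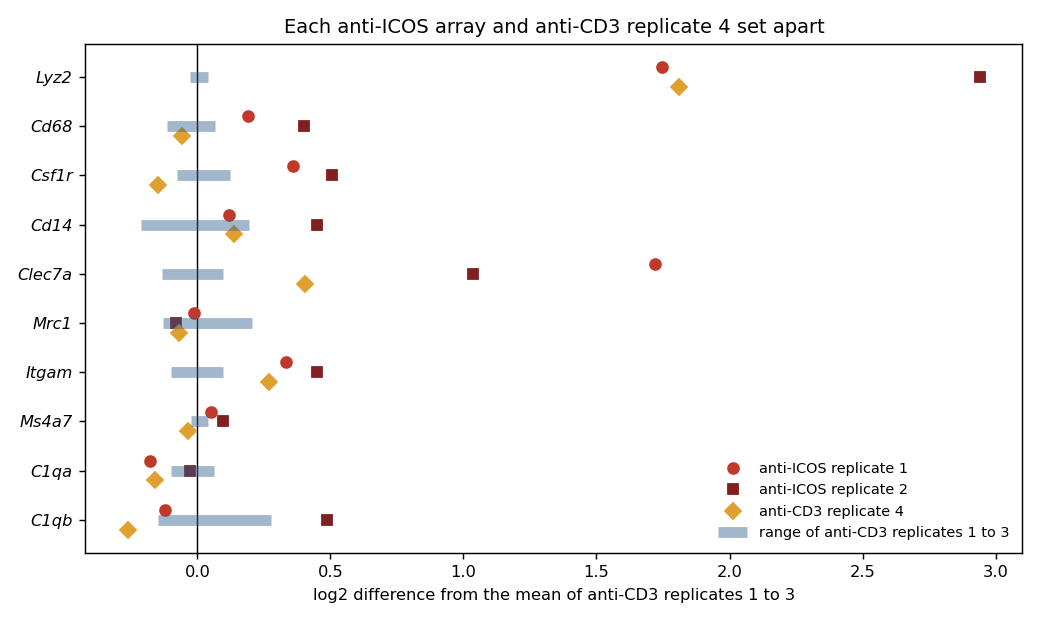
Log2 difference of each anti-ICOS array and of anti-CD3 replicate 4 from the mean of anti-CD3 replicates 1 to 3, for the 10 genes, with the range of replicates 1 to 3 as a bar. Replicate 4 lies 1.81 above that mean for Lyz2 and 0.15 below it for Csf1r.

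The 10 genes were chosen with this contrast known, so no count in this paragraph is a test of them. Without anti-CD3 replicate 4, 5 of the 10 genes passed the adjusted threshold, Lyz2, Cd68, Csf1r, Clec7a and Itgam, all higher. Of all genes, 29.7% passed in that fit and 17.1% were higher. Against replicate 4 alone 0 of 10 passed, where 0.176% of all genes did, and without adjustment p was under 0.05 for 3, each higher, where 2.94% of all genes were higher and 2.15% lower. In that comparison all 10 differences were above 0, from 0.022 for Mrc1 to 0.98 for Clec7a, with a median of 0.25 against -0.013 over all genes. Of the 10 genes 4 (Lyz2, Cd68, Itgam and C1qb) exceeded a filter that leaves out the dimmest 40% of genes. The other 6 are dim, and the offset of 16 makes their differences smaller.

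**Figure D3:**
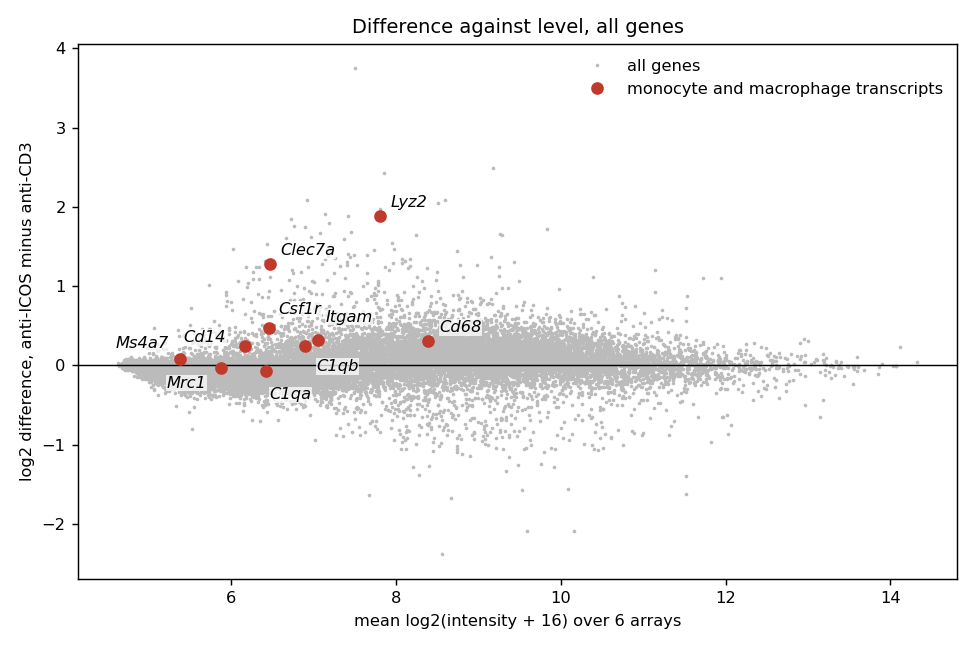
Log2 difference, anti-ICOS minus anti-CD3, against mean log2(intensity + 16) over the 6 arrays, for 19937 genes (grey) and the 10 monocyte and macrophage transcripts (red). Lyz2 at 1.89 and Clec7a at 1.28 lie above the main cloud, and C1qa, Mrc1 and Ms4a7 lie within 0.1 of 0.

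Other genes of the same cells, gene families and pathways were listed by role, without the 10, and 107 of 110 listed genes were measured. Not every listed gene is particular to myeloid cells. With anti-ICOS, 5 of the 107 rose (limma, adjusted over all genes) and 0 fell, where 0.271% of all genes rose and 0 of all genes fell; without adjustment, p was under 0.05 for 39 higher and 3 lower genes of the 107, where 6.24% of all genes were higher and 5.57% lower. The 5 were the receptor genes Flt3, Sirpa and Pirb, the heme oxygenase gene Hmox1 and the cytokine gene Il1b. The median difference over the 107 was 0.16, against -0.031 over all genes. Without anti-CD3 replicate 4, 46 were higher and 5 lower, where 17.1% and 12.7% of all genes were. With replicate 4 as the only reference 5 were higher and 0 lower, where 0.176% of all genes were higher; those 5 held Tyrobp in place of Il1b. The lists were written with earlier results of these data known.

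Flt3, the receptor kinase of progenitors and dendritic cells, read 8.05 and 8.26 with anti-ICOS, against 6.86, 6.86, 6.89 and 7.00 with anti-CD3, a rise of 1.26 ± 0.087 (SE, limma adjusted p = 0.00321). Sirpa, the CD47 receptor of myeloid cells, read 8.97 and 9.05 with anti-ICOS, against 7.70, 7.65, 7.66 and 8.01 with anti-CD3, a rise of 1.25 ± 0.12 (adjusted p = 0.00900). For both genes replicate 4 was the highest anti-CD3 array and still far below the anti-ICOS arrays. These 2 were the genes past the threshold among 8 of the CSF1 receptor axis and related receptors (list median 0.64). Tyrobp, the DAP12 adaptor of many myeloid receptors, read 8.87 and 8.99 with anti-ICOS, against 7.43, 7.56, 7.43 and 8.15 with anti-CD3, a difference of 1.29 ± 0.21 that missed the threshold (adjusted p = 0.0957). Kit, the stem cell factor receptor, differed by 0.90 ± 0.13 (adjusted p = 0.0574). Flt3 passed under all 16 alternatives tried. Sirpa missed the threshold when any single array was left out, except anti-CD3 replicate 4 (highest adjusted p 0.127).

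Pirb, an inhibitory receptor of myeloid and B cells, read 8.39 and 8.60 with anti-ICOS, against 7.35, 7.33, 7.34 and 7.68 with anti-CD3, a rise of 1.07 ± 0.12 (limma adjusted p = 0.0317). It was the 1 gene of 10 past the threshold among integrin partners and Fc receptors (median 0.21). Fcer1g, the signalling chain shared by Fc receptors, differed by 1.25 ± 0.19 (adjusted p = 0.0777), and Itgax, the CD11c chain of dendritic cells and macrophages, by 0.87 ± 0.25 (adjusted p = 0.411). Itgax in anti-CD3 replicate 4, at 7.74, approached the anti-ICOS values of 8.07 and 7.94. Pirb missed the limma threshold when any single array was left out, except anti-CD3 replicate 4 (highest adjusted p 0.220). It also missed it when 64 was added to the intensities (adjusted p = 0.0662).

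Among 14 macrophage mediators and enzymes (median 0.14), 2 rose. Hmox1, which degrades heme and is high in macrophages that clear red cells, read 8.98 and 8.99 with anti-ICOS, against 7.47, 7.72, 7.62 and 7.86 with anti-CD3, a rise of 1.32 ± 0.11 (adjusted p = 0.00675). Il1b, which encodes the inflammatory cytokine IL-1 beta, read 6.89 and 6.69 with anti-ICOS, against 6.17, 6.08, 6.21 and 6.11 with anti-CD3, a rise of 0.65 ± 0.084 (adjusted p = 0.0463). In both genes replicate 4 kept to the anti-CD3 side. The neutrophil chemokine gene Cxcl2 differed by 0.43 ± 0.086 (adjusted p = 0.185). Hmox1 missed the threshold when anti-CD3 replicate 2, anti-CD3 replicate 3 or 1 of the anti-ICOS arrays was left out (highest adjusted p 0.0890). Il1b missed it when any single array was left out, except anti-CD3 replicate 4 (highest adjusted p 0.426), against replicate 4 alone (0.107), with median centring (0.0604) and with an offset of 64 (0.0930).

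**Figure D4:**
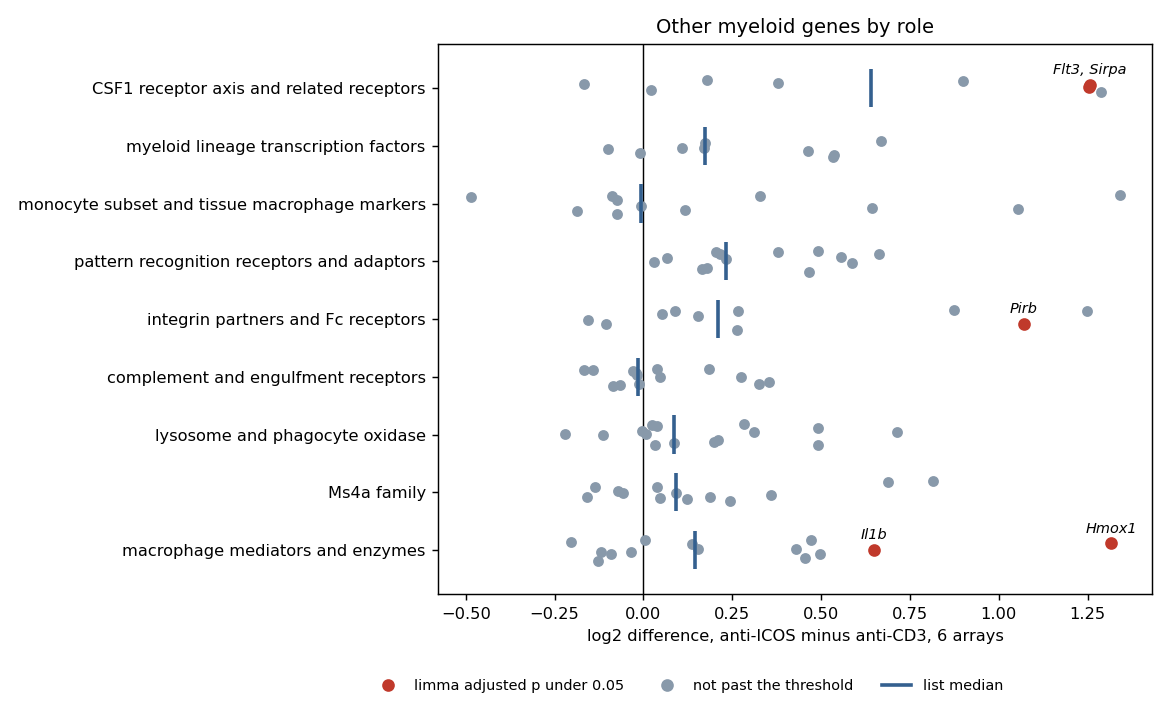
Log2 difference, anti-ICOS minus anti-CD3 over the 6 arrays, of the 107 other listed genes in 9 lists by role, 1 point per gene. Bars are list medians, and the 5 genes past limma's adjusted threshold are in red. The CSF1 receptor axis list has its median at 0.64 and the complement and engulfment list at -0.016.

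No gene passed the adjusted threshold in the other 6 lists, which hold 75 measured genes. At an unadjusted p under 0.05 in limma these lists held 4 higher of 9 lineage factors, 4 higher and 1 lower of 11 subset markers, and 7 higher of 13 pattern recognition genes, where 6.24% of all genes were higher and 5.57% lower. Of 14 complement and engulfment genes 3 were higher, of 15 lysosome and oxidase genes 4 were higher and 1 lower, and of 13 Ms4a genes 3 were higher and 1 lower. List medians were 0.17 for lineage factors, 0.23 for pattern recognition, 0.087 for lysosome and oxidase, 0.092 for the Ms4a family, -0.0070 for subset markers and -0.016 for complement and engulfment.

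Spi1, the gene of PU.1, differed by 0.67 ± 0.13 (limma adjusted p = 0.157), at 9.41 and 9.25 with anti-ICOS against 8.67, 8.74, 8.40 and 8.83 with anti-CD3. The interferon regulatory factor genes Irf8 and Irf5 differed by 0.53 ± 0.17 and 0.46 ± 0.093 (adjusted p = 0.413 and 0.185). B cells also express these 3 factors. Among subset markers, Ccr2, the receptor that brings monocytes out of the marrow, differed by 1.05 ± 0.26 (adjusted p = 0.337), Fn1, the fibronectin gene, by 0.33 ± 0.069 (adjusted p = 0.214) and Cx3cr1, the fractalkine receptor of patrolling monocytes, by -0.49 ± 0.10 (adjusted p = 0.223).

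Of the lectin receptors, Clec12a differed by 0.66 ± 0.18, Clec4n (dectin-2) by 0.55 ± 0.13 and Clec4a1 by 0.38 ± 0.096 (limma adjusted p = 0.389, 0.275 and 0.343). Clec12a read 7.12 and 7.60 with anti-ICOS, against 6.59, 6.60, 6.56 and 7.04 with anti-CD3. Like Lyz2, it had replicate 4 close to anti-ICOS replicate 1 and the higher value in anti-ICOS replicate 2. In the engulfment list the differences were 0.35 ± 0.10 for the anaphylatoxin receptor gene C3ar1, 0.33 ± 0.096 for the scavenger receptor gene Msr1 and 0.27 ± 0.091 for Mertk, a receptor for dying cells (adjusted p = 0.413 for each).

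The endosomal protease genes Lgmn and Ctss differed by 0.71 ± 0.18 and 0.31 ± 0.12, and Mpeg1, which encodes the pore-forming protein perforin-2, by 0.49 ± 0.16 (limma adjusted p = 0.341, 0.416 and 0.413). In the Ms4a family, Ms4a6c differed by 0.82 ± 0.19, Ms4a6d by 0.69 ± 0.26 and Ms4a4a by 0.36 ± 0.10 (adjusted p = 0.299, 0.416 and 0.413). Ms4a6d in replicate 4 read 8.02, beside 8.06 and 8.07 with anti-ICOS and apart from 7.23, 7.04 and 7.20 in anti-CD3 replicates 1 to 3. Ms4a7, their relative among the 10 genes, showed no such gap.

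The genes nearest to Lyz2 in profile were Adgre1, Igkv4-91 and Thbs1, measured as the root mean square distance between centred log2 values over the 6 arrays (0.32, 0.33 and 0.36). Adgre1, which encodes the macrophage marker F4/80, read 7.77 and 8.29 with anti-ICOS, against 6.21, 6.18, 6.27 and 8.10 with anti-CD3. Anti-CD3 replicate 4 thus lay between the 2 anti-ICOS arrays. Its difference was 1.34 ± 0.55 (limma adjusted p = 0.419), 1.81 without replicate 4 and -0.068 against replicate 4 alone. Thbs1, the thrombospondin 1 gene, read 8.87 and 9.05 with anti-ICOS, against 7.07, 7.14, 6.95 and 8.79 with anti-CD3. Igkv4-91, an immunoglobulin light chain segment, read 10.06 and 10.66 with anti-ICOS, against 8.45, 8.59, 8.21 and 9.59 with anti-CD3. The nearest genes to the mean profile of the 10 were Gnb4, Castor2, S100a4, Gpc1 and Nr1d1, at distances of 0.045 to 0.060. Lyz2 weighs heavily in that mean. On anti-CD3 replicate 4 it lay 1.81 above the mean of replicates 1 to 3, where the median deviation of the 10 was -0.047. Of the 10 genes, Itgam lay closest to that mean at 0.098 and Lyz2 farthest at 0.92.

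**Figure D5:**
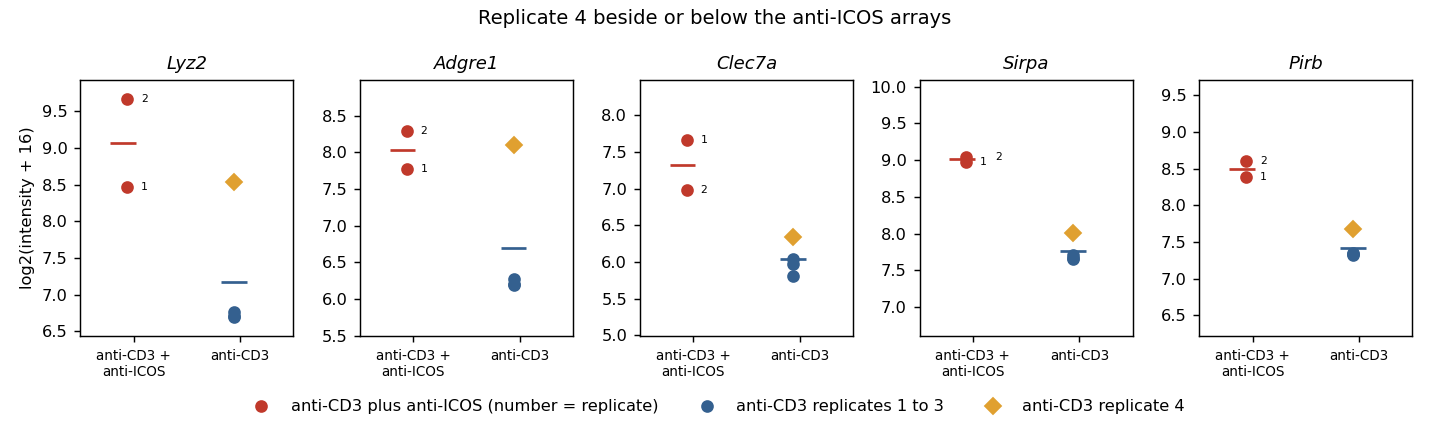
Log2(intensity + 16) of Lyz2, Adgre1, Clec7a, Sirpa and Pirb, with the 2 anti-ICOS arrays left and the 4 anti-CD3 arrays right in each panel, bars as group means. Anti-CD3 replicate 4 (diamond) is level with anti-ICOS replicate 1 for Lyz2 at 8.53, lies between the anti-ICOS arrays for Adgre1 at 8.10, and lies below them for Clec7a at 6.34, Sirpa at 8.01 and Pirb at 7.68.

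Of the 64 markers of other cells and of CD4 T cells, 1 passed the adjusted threshold, where 0.271% of all genes did. Without adjustment, limma p was under 0.05 for 20 higher and 4 lower of the 64. Of all genes, 6.24% were higher and 5.57% lower at that unadjusted threshold. Among 10 dendritic cell markers the fascin gene Fscn1 rose by 2.49 ± 0.20 (limma adjusted p = 0.00547). The list median was 0.23, with 8 of the 10 above 0, and 5 were higher and 1 lower at an unadjusted p under 0.05. The summed intensity of the list was 16336 and 17211 with anti-ICOS and 12741 to 15249 with anti-CD3. The brightest genes in that sum were Ccr7 and H2-Ab1. Ccr7 had intensities of 5441 and 5939 with anti-ICOS and 4897 to 7308 with anti-CD3. H2-Ab1 had 5946 and 6355 with anti-ICOS and 5439 to 5981 with anti-CD3. The defining factor gene of dendritic cells, Zbtb46, read 7.36 and 7.28 with anti-ICOS and 6.89 to 7.07 with anti-CD3. Cd209a read 6.44 and 6.30 with anti-ICOS and 6.11 to 6.56 with anti-CD3. Flt3, Sirpa and Itgax are expressed by dendritic cells too. Neutrophil markers had 0 of 10 past the threshold (5 higher and 0 lower at an unadjusted limma p under 0.05), and 7 of the 10 differences were above 0. Their summed intensities were 665 and 1497 with anti-ICOS and 509 to 626 with anti-CD3. On both anti-ICOS arrays the brightest genes in that sum were Mpo and Elane. Mpo had intensities of 138 and 538 with anti-ICOS and 68 to 90 with anti-CD3. Elane had 128 and 371 with anti-ICOS and 92 to 99 with anti-CD3. Ngp, a granule protein gene, read 6.19 and 7.82 with anti-ICOS and 5.65 to 5.99 with anti-CD3, and Ltf, the lactoferrin gene, read 5.91 and 5.97 with anti-ICOS and 5.86 to 6.12 with anti-CD3. Anti-ICOS replicate 2, the array with the higher Ngp, was also the one with the higher Lyz2. Anti-CD3 replicate 4, which had Lyz2 at 8.53, had the lowest neutrophil sum of the 6 arrays, 509, and Ngp at 5.68, inside the range of replicates 1 to 3.

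The 8 mast cell and basophil markers summed to 498 and 612 with anti-ICOS and 378 to 464 with anti-CD3. Their basophil protease gene Mcpt8 read 6.32 and 7.08 with anti-ICOS and 5.70 to 5.94 with anti-CD3, and Fcer1a read 5.31 and 5.24 with anti-ICOS and 5.22 to 5.33 with anti-CD3. NK cell markers summed to 4500 and 4420 with anti-ICOS and 3466 to 4594 with anti-CD3. Ncr1 read 6.34 and 6.54 with anti-ICOS and 5.60 to 5.86 with anti-CD3, and Klrb1c 5.92 and 5.87 with anti-ICOS and 5.46 to 5.71 with anti-CD3. B cell markers summed to 17663 and 19567 with anti-ICOS and 16306 to 19482 with anti-CD3. Cd79b read 12.58 and 12.70 with anti-ICOS and 12.31 to 12.66 with anti-CD3. CD8 T cell markers summed to 6935 and 7076 with anti-ICOS and 6060 to 7182 with anti-CD3. Cd8a read 10.12 and 10.25 with anti-ICOS and 9.98 to 10.32 with anti-CD3, and Cd8b1 11.67 and 11.70 with anti-ICOS and 11.49 to 11.76 with anti-CD3. Erythroid and platelet markers summed to 455 and 550 with anti-ICOS and 354 to 426 with anti-CD3. Alas2 read 6.23 and 6.12 with anti-ICOS and 5.99 to 6.11 with anti-CD3, and Klf1 6.47 and 6.52 with anti-ICOS and 6.25 to 6.56 with anti-CD3. CD4 T cell markers summed to 34142 and 35588 with anti-ICOS and 36550 to 40297 with anti-CD3. Cd3e read 12.40 and 12.43 with anti-ICOS and 12.45 to 12.81 with anti-CD3. No marker was at 0 on any array, since the deposited intensities begin at 7.23. The part of these cells in the values of the 10 genes was not tested.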

How the data were processed

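RNA of 6 cultures was measured on 1-colour arrays, per the labels' protocols. The intensities were deposited by the authors already normalized, per probe set, on a linear scale from 7.23 to 22176. MAS5 is the 1 tool named, per the submitters' processing notes. It was written for arrays with mismatch probes, which Gene ST arrays lack, so how it was applied here is unknown, and no background correction, scaling or centring step is stated in the sources used here.

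Of 34760 probe sets, 21640 had 1 gene symbol in the platform annotation, 1321 had several and 11799 none. The brightest probe set of each gene gave 19937 genes. Groups came from the sample titles. No label says that the cultures came from separate animals, so p-values measure only the spread between these arrays, which may be technical. Values were log2(intensity + 16), fitted with limma 3.58.1 in R 4.3.3 over all genes and 6 arrays (4 residual degrees of freedom), two-sided, with Benjamini-Hochberg adjustment over all genes and a threshold of 0.05. SE are limma's moderated errors. Of the 110 genes in 9 role lists 107 were measured, and there were 8 marker lists.

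The 10 genes, the lists, tests and alternatives were chosen with earlier results of these data known. Named genes are the 10, the 3 of smallest p in each role list, and the first 2 measured markers of each cell type. The 5 nearest in profile to the mean of the 10 and the 3 nearest to Lyz2 were named too. Tyrobp, Lyz1, C1qc, Fscn1, Ccr7, H2-Ab1, Mpo and Elane were named after their values were seen. The alternatives were array weights, median centring or quantile normalization, probe sets averaged per gene, leaving out the dimmest 40% of genes, a prior that is trended and robust, other offsets (1 and 64), a replicate block, leaving out single arrays, anti-CD3 replicate 4 as the only reference (replicates 1 to 3 then add only to the spread) and a threshold of 0.1. The fit was tested on simulated data. Sequences are from RefSeq, GRCm38.p6. Plots used matplotlib 3.10.9 in Python 3.11.15.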

Additional observations from a re-analysis of the deposited data

Results flagged for a closer look

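Within the 4 anti-CD3 arrays, an array was singled out where the distance to its closest neighbour, divided by the whole range of the group, exceeded Dixon's limit of 0.829, which chance does in about 1 of 20 groups. Over all genes 8.69% exceeded it, in 6% with replicate 4 as the array apart. Of the 61 genes named by the rules above 9 did, where genes named after their values were seen are not counted. All 9 had replicate 4 apart, and above the rest. The ratio was 0.963 for Lyz2 (8.53 against 6.70 to 6.77), 0.957 for Adgre1 (8.10 against 6.18 to 6.27) and 0.897 for Thbs1 (8.79 against 6.95 to 7.14). It was 0.942 for Gpc1 (8.22 against 7.91 to 7.93), 0.927 for Pirb (7.68 against 7.33 to 7.35) and 0.912 for Clec12a (7.04 against 6.56 to 6.60). It was 0.901 for Castor2 (8.99 against 8.69 to 8.72), 0.865 for Gnb4 (8.15 against 8.01 to 8.03) and 0.842 for Sirpa (8.01 against 7.65 to 7.70). Adgre1 and Thbs1 were named for a profile like that of Lyz2. Gnb4, Castor2 and Gpc1 were named for a profile like the mean of the monocyte and macrophage transcripts. Those transcripts, Lyz2 among them, were chosen with these values known, so nothing is read from the count of 9. The first value in each pair is that of replicate 4 and the range that of replicates 1 to 3.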

How the results depend on the processing

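Of all 19937 genes, 54 were higher and 0 lower in the fit with all arrays (at an unadjusted p under 0.05 limma gave 1245 higher and 1110 lower). The count of higher genes was 4543 with array weights, 28 with an offset of 64, 35 against anti-CD3 replicate 4 alone and 85 at a threshold of 0.1, and leaving out 1 array gave 16 to 3404, the highest without anti-CD3 replicate 4. The count of lower genes was 4871 with array weights and 0 to 2527 with 1 array left out. For the 107 other listed genes, 5 higher and 0 lower with all arrays, the counts were 51 higher and 10 lower with array weights. They were 3 higher with an offset of 64, 8 higher at a threshold of 0.1, and 1 to 46 higher and 0 to 5 lower with 1 array left out. Replicates 1 and 2 share only a number between the groups (their deviations correlated at -0.039 and 0.10). With the replicate number as a block, 3389 genes were higher and 3163 lower, and 47 and 7 of the 107; no pairing is given by the labels. In the block fit the numbers 3 and 4 occur only in anti-CD3, so anti-CD3 replicates 3 and 4 do not enter the difference. The array weights were lowest for anti-CD3 replicate 4, at 0.15, against 0.38 to 4.53 on the other arrays. Both fits thus give replicate 4 little or no part in the difference, as does the fit without it. A looser threshold or a larger offset alters a count by construction. The cause of these shifts was otherwise not tested. The median difference of the 10 monocyte and macrophage transcripts, 0.28, was 0.14 to 0.42 with 1 array left out, the lowest without anti-ICOS replicate 2. Of 144 single values of these 10 genes under the alternatives, 124 kept their sign and moved by less than 1 SD between replicates. Mrc1 was above 0 under 6 alternatives (0.0046 to 0.060: quantile normalization, array weights, replicate block, without anti-CD3 replicate 3, without anti-ICOS replicate 2, against replicate 4 alone). C1qa was above 0 under 3 (0.010 to 0.055: quantile normalization, without anti-ICOS replicate 1, against replicate 4 alone), and C1qb below 0 under 1 (-0.058, without anti-ICOS replicate 2).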
